A study of Mus musculus with 29 samples.

Results

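Atoh1 binding sites were compared between mouse embryonic stem cell-derived iG+A cells, in which Atoh1 was induced together with Gfi1, and iP+A cells, in which it was induced together with Pou4f3. Summits of the 2 Atoh1 peak lists were widened to 300 bp windows, and windows that shared at least 1 bp were joined into 1 site. This gave 31101 sites, of 78408 sites when all 9 peak lists of the series were joined in the same way. They fell into 7805 shared sites, 12352 sites found in iG+A cells only and 10944 found in iP+A cells only. The last 2 classes are called unshared below. The iG+A list held 20504 peaks and the iP+A list 18949.

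ChIP-seq, the sequencing of DNA precipitated with a bound protein, was done in A2loxCre embryonic stem cell lines carrying a doxycycline-inducible cassette, in which the factors were joined to a nuclear Venus reporter. The lines were grown as embryoid bodies (EBs), aggregates of differentiating stem cells, and all groups were harvested at day 6, having had 2 µg/ml doxycycline for the last 48 h. Atoh1 was precipitated through a FLAG tag in iG+A and iP+A cells, with 2 ChIP libraries in each line. The other lines used for comparison were iAtoh1 (Atoh1 alone), iPou4f3 (Pou4f3 alone), iG+P (Gfi1 and Pou4f3) and iGPA (all 3 factors), with Pou4f3 precipitated through a MYC tag and Gfi1 in iGPA cells with an antibody to the protein in 1 library. Each list was called by the authors on merged replicates, so the lists hold no value per replicate and the classes were compared without p-values. All intervals are at 95%, exact Clopper-Pearson for a share and Newcombe for a difference. They hold counting error alone, and sites close together are not independent.

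Atoh1 is a basic helix-loop-helix (bHLH) factor that starts the differentiation of inner ear hair cells and also of several kinds of neuron. Like other bHLH factors it binds E-boxes, short DNA words of the form CANNTG, where N is any base. Pou4f3 is a POU homeodomain factor needed by hair cells, whose family binds AT-rich DNA, and Gfi1 is a zinc finger repressor also needed by hair cells and known from blood cell development.

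Sequences of the strongest sites are shown first, since the words they hold are counted over all sites further on. The sequences below are 120 bp centred on the summit, on the plus strand of mm9. At shared sites the midpoint between the strongest summits of the 2 lists was taken as the summit. This holds for all sequence and distance counts below. Capitals mark an E-box core (CAGATG or its reverse complement, CAGCTG or CATATG) or a match to ATAATTAAT with at most 1 mismatch on either strand, called the Pou4f pattern below. Each line gives the class, the gene with the nearest transcription start and the position. The first 2 lines are shared sites, followed by 3 iG+A-only sites and 3 iP+A-only sites.
shared, Dnahc2, chr11:69273484-69273603: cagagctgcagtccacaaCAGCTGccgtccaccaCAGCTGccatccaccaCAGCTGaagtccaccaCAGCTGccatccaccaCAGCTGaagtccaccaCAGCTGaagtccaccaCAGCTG
shared, Sh3rf3, chr10:58387941-58388060: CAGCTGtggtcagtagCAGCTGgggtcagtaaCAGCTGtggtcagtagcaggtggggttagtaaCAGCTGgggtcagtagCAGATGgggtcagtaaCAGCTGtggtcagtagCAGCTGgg
iG+A only, Esrrg, chr1:189731825-189731944: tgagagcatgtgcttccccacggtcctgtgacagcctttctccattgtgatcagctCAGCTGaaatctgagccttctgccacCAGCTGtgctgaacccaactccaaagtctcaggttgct
iG+A only, Tmem229b, chr12:80081818-80081937: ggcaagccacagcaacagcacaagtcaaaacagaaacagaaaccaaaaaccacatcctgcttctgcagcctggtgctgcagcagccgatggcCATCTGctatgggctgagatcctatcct
iG+A only, BC028471, chr5:150195145-150195264: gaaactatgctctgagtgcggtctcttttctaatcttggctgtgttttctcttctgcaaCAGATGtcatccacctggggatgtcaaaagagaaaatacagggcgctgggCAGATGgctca
iP+A only, Gm4279, chr16:11782350-11782469: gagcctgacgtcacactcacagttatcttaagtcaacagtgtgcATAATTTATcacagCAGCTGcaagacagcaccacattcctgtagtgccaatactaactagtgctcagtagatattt
iP+A only, Gm15529, chr6:12777859-12777978: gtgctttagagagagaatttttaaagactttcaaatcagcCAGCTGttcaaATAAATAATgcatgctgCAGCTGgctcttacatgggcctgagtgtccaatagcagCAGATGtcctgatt
iP+A only, A230056P14Rik, chr7:63222434-63222553: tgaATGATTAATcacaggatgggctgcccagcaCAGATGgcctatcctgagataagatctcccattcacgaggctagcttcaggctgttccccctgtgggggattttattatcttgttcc

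The 2 shared sites printed had the highest lower fold enrichment of the class. Both were arrays of E-box cores, mostly CAGCTG, with 7 cores in the 120 bp at each. The cores lay in tandem repeats, whose units were longer than the 12 bp up to which repeats were left out. Fold enrichment is the authors' ratio of precipitated fragments to local background at a summit. Whether the repeats raised the fold enrichment at these sites was not tested. The site in an intron of Dnahc2 had a fold enrichment of 51.8 in iG+A and 45.7 in iP+A cells, and the site in an intron of Sh3rf3 had 34.7 and 44.4. Both were also peaks of Atoh1 in iAtoh1 (43.9 and 30.2) and iGPA cells (72.1 and 70.4), so these were strong in each of the 4 Atoh1 lists. Both were weaker Pou4f3 peaks in iP+A and iGPA cells (3.17 to 5.68).

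The strongest iG+A-only sites were weaker than the strongest iP+A-only sites. The intronic Esrrg site (chr1:189731735-189732034) and the Tmem229b site 113 bp upstream of a start (chr12:80081728-80082027) both had a fold enrichment of 10.9 in iG+A cells, and the intronic BC028471 site (chr5:150195055-150195354) had 10.4. All 3 held an E-box core and none the Pou4f pattern, and all 3 were also Atoh1 peaks in iAtoh1 (3.66 to 5.13) and iGPA cells (5.41 to 7.51). No Pou4f3 list had a peak at any of them. The Esrrg site was also a Gfi1 peak in iGPA cells, with a fold enrichment of 6.18. Esrrg encodes an orphan nuclear receptor.

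The strongest iP+A-only sites carried both kinds of word. The intergenic sites nearest to Gm4279 (chr16:11782260-11782559, fold enrichment 21.6) and Gm15529 (chr6:12777769-12778068, 20.9) held the Pou4f pattern and an E-box core, and both were Pou4f3 peaks in all 4 Pou4f3 lists. At the Gm4279 site the Pou4f3 fold enrichment was 19.9 in iPou4f3 cells, 17.5 with Gfi1, 14.4 with Atoh1 and 34.98 with both. Atoh1 in iGPA cells had a fold enrichment of 38.4 there and 33.5 at the Gm15529 site, and iAtoh1 cells had no peak at either. The site in an intron of A230056P14Rik (chr7:63222344-63222643, 17.7) was a weaker Atoh1 peak in iAtoh1 cells (4.40), a peak in all 4 Pou4f3 lists (3.39 to 10.2) and a Gfi1 peak in iGPA cells (7.26).

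Of the sites of each line, 38.7% (38.0 to 39.4) of 20157 iG+A sites and 41.6% (40.9 to 42.3) of 18749 iP+A sites were shared. Near the joining distance, 545 iG+A peaks had their nearest iP+A summit at 200 to 299 bp and 466 at 300 to 399 bp, against 5262 within 49 bp. The median fold enrichment at shared sites was 3.74 in iG+A and 3.44 in iP+A cells, and it was 3.07 at iG+A-only and 2.97 at iP+A-only sites. At shared sites the log2 fold enrichment of the 2 lists had a Pearson correlation of 0.620 over 7805 sites, a description only, since the sites share libraries and base composition.

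Strong peaks were shared more often than weak ones, and the strongest iG+A peaks more often than the strongest iP+A peaks. With the authors' −log10 p of 5 to 10 at the summit, 28.8% (28.0 to 29.6) of the iG+A sites and 32.8% (31.9 to 33.7) of the iP+A sites were shared. At −log10 p of 50 or more 328 of 334 iG+A sites (98.2%, 96.1 to 99.3) and 324 of 399 iP+A sites (81.2%, 77.0 to 84.9) were shared. Of the unshared sites, 12.2% (11.6 to 12.8) of iG+A-only and 11.7% (11.1 to 12.3) of iP+A-only sites had a peak in the other line that was called but not kept by the authors. The most frequent local background recovered from the fold enrichment and p-values was 6.49 fragments in the iG+A list and 8.30 in the iP+A list, and the part of this in the list difference was not tested.

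A group of sites lay in a few crowded regions. Of the 2395 bins of 1 Mb with a site, 56 held over 50 sites each and together 7006 sites (22.5%), while the median bin held 8. The largest groups were at chr4:145000001-147000000 and chr14:3000001-9000000. These bins took up 21.2% of shared, 23.5% of iG+A-only and 22.4% of iP+A-only sites. A 10-letter pattern, the Atoh1 E-box pattern, was present at 3.73% of their sites and at 18.2% of the others. They set the list of genes with the most sites, led by Prl2c3 with 59 shared, 51 iG+A-only and 56 iP+A-only sites, and by multicopy or small RNA genes such as Prl2c2, Tmem181b-ps and U6. Values without these bins were computed after the data were seen and are given where they change a statement.

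Atoh1 in other lines separated the shared class from the unshared ones. No peak in any of the 7 other lists was present at 386 (4.95%) of shared, 5068 (41.0%) of iG+A-only and 3157 (28.85%) of iP+A-only sites. Atoh1 peaks of iAtoh1 cells were present at 69.3% (68.3 to 70.3) of shared sites, 21.6% (20.9 to 22.3) of iG+A-only and 21.1% (20.3 to 21.8) of iP+A-only sites. The last 2 differed by 0.523 percentage points (−0.532 to 1.58), an interval that includes 0. Without the crowded bins the difference was 1.90 points (0.794 to 3.00), higher in iG+A-only sites. With both lists cut to −log10 p of at least 10 or 20 and joined anew, it was 8.92 (6.66 to 11.2) and 22.6 points (18.8 to 26.3). A site whose peak in the other line fell below the cut-off was then counted as unshared. At 20 this gave 948 iG+A-only sites, while only 296 sites of the iG+A-only class used elsewhere had −log10 p of at least 20. In iGPA cells, which carry both partners, Atoh1 peaks were present at 79.3% (78.4 to 80.2) of shared, 37.2% (36.4 to 38.1) of iG+A-only and 43.1% (42.1 to 44.0) of iP+A-only sites, so iP+A-only sites exceeded iG+A-only sites by 5.81 points (4.55 to 7.07). Of the iP+A-only sites, 3663 (33.5%) were Atoh1 peaks in iGPA but not in iAtoh1 cells, compared with 3128 (25.3%) of the iG+A-only sites. In that subset the Pou4f pattern was present at 24.1% (22.7 to 25.5) of iP+A-only and 2.75% (2.20 to 3.38) of iG+A-only sites.

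**Figure D1:**
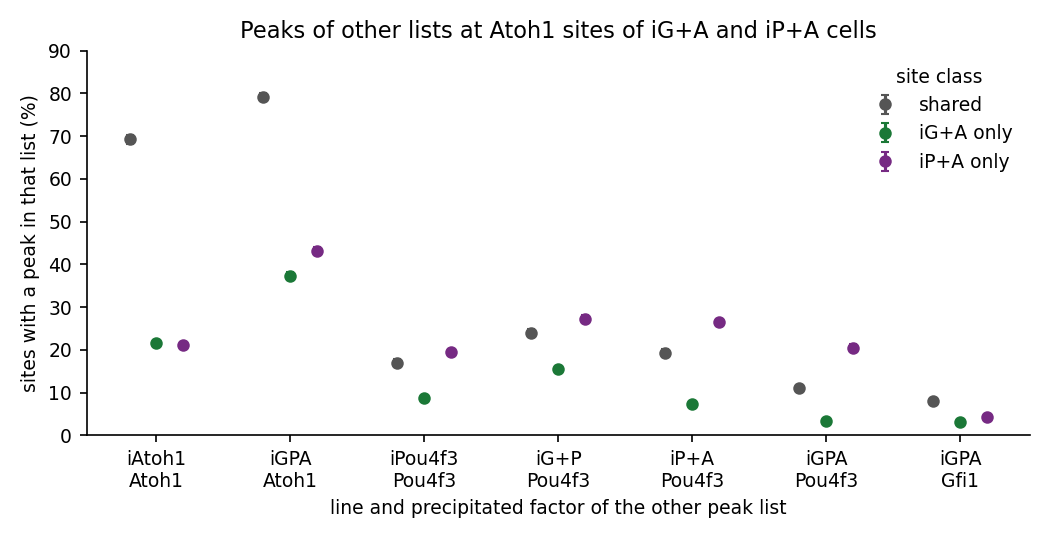
Share of sites (%) with a peak in each of 7 other lists, by class; points are shares and bars, mostly smaller than the points, 95% Clopper-Pearson intervals. Shared sites are highest in both Atoh1 lists, and iP+A-only sites are highest in the 4 Pou4f3 lists, at 19.6% to 27.3%.

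Pou4f3 peaks were more frequent at iP+A-only than at iG+A-only sites in every Pou4f3 list. In iPou4f3 cells, which have no induced Atoh1, the shares were 19.6% (18.8 to 20.3) and 8.67% (8.18 to 9.18), a difference of 10.9 points (10.0 to 11.8). In iG+P cells they were 27.3% (26.4 to 28.1) and 15.5% (14.8 to 16.1), a difference of 11.8 points (10.7 to 12.8). In iP+A cells themselves they were 26.5% (25.7 to 27.3) and 7.24% (6.79 to 7.71), and in iGPA cells 20.5% (19.7 to 21.3) and 3.42% (3.10 to 3.75). Without the crowded bins the shares were 22.9% and 9.26% in iG+P and 25.5% and 4.80% in iP+A cells. Shared sites were between the unshared classes in all 4 lists, from 10.99% in iGPA to 24.0% in iG+P cells. The Pou4f3 lists of iP+A cells and the Atoh1 list of iP+A cells come from the same line and share its input.

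Over all sites, Gfi1 peaks were less frequent at iG+A-only than at iP+A-only sites, but not where no Pou4f3 peak was called. In iGPA cells they were present at 3.03% (2.73 to 3.34) of iG+A-only, 4.18% (3.82 to 4.58) of iP+A-only and 8.11% (7.51 to 8.74) of shared sites, so iP+A-only sites exceeded iG+A-only sites by 1.16 points (0.678 to 1.64). Among sites in none of the 4 Pou4f3 lists the order was reversed, at 2.12% (1.84 to 2.43) of iG+A-only and 1.39% (1.10 to 1.72) of iP+A-only sites. Among sites in all 4 lists the shares were 9.89% (4.62 to 17.95) and 16.3% (13.9 to 18.8). Among the strongest 2189 iP+A-only sites by −log10 p the share was 11.2% (9.95 to 12.6), and among the strongest 2471 iG+A-only sites 5.06% (4.23 to 6.00). The strongest iG+A-only sites with a Gfi1 peak were the Esrrg site above and a site 163 bp upstream of a start of Myh9, a non-muscle myosin heavy chain gene, with a fold enrichment of 9.08 for Atoh1 in iG+A and 9.46 for Gfi1 in iGPA cells (chr15:77672618-77672917). Gfi1 was precipitated only in iGPA cells, so its sites in iG+A cells were not measured.

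Most iP+A-only sites had no Pou4f3 peak, and those with a peak in all Pou4f3 lists stood apart. Of the 10944 iP+A-only sites, 5836 (53.3%) were in none of the 4 Pou4f3 lists and 910 (8.32%) in all 4, compared with 9398 (76.1%) and 91 (0.737%) of the iG+A-only sites. At iP+A-only sites the Pou4f pattern was present at 7.93% (7.25 to 8.66) with no Pou4f3 list and at 50.2% (46.9 to 53.5) with all 4. In 250 bp windows 1000 bp to each side the shares were 8.52% (8.02 to 9.04) and 9.29% (7.99 to 10.7), so the iP+A-only sites without a Pou4f3 peak did not exceed their flanks. The other classes without a Pou4f3 peak lay below theirs, at 2.89% (2.57 to 3.25) against 8.27% for iG+A-only and 2.35% (1.93 to 2.82) against 7.48% for shared sites, so iP+A-only sites held the pattern more often than both also where no Pou4f3 peak was called. Atoh1 peaks of iGPA cells went from 33.7% (32.5 to 35.0) to 79.7% (76.9 to 82.2) over the same range. The 4 lists include that of Pou4f3 in iGPA cells, from the same line. By the iPou4f3 list alone, Atoh1 peaks of iGPA cells were at 59.2% of iP+A-only sites with a Pou4f3 peak and 39.1% without. Atoh1 peaks of iAtoh1 cells were at 20.9% (19.9 to 22.0) of the sites with no Pou4f3 list and at 5.82% (4.39 to 7.55) of those with all 4. Gfi1 peaks of iGPA cells were at 1.39% (1.10 to 1.72) and 16.3% (13.9 to 18.8), and the median Atoh1 fold enrichment in iP+A cells was 2.90 and 3.44.

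**Figure D2:**
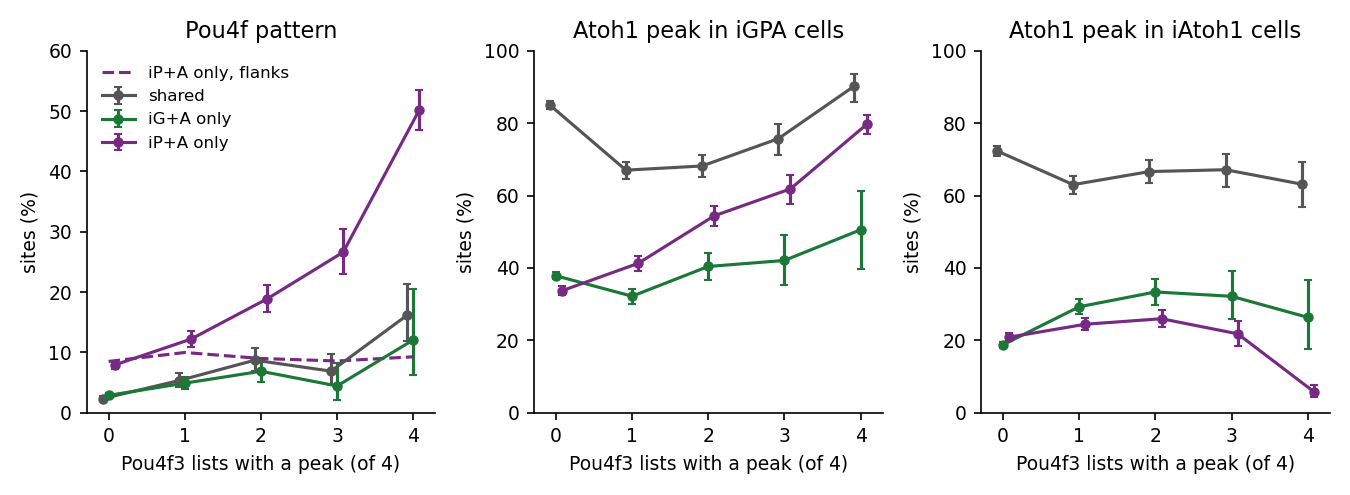
Share of sites (%) with the Pou4f pattern, with an Atoh1 peak in iGPA cells and with one in iAtoh1 cells, against the number of Pou4f3 lists (0 to 4) that have a peak there; bars are 95% Clopper-Pearson intervals and the dashed line is the pattern's share in the flanks of iP+A-only sites. In iP+A-only sites (purple) the first 2 shares are highest at 4 lists, at 50.2% and 79.7%, where the third is lowest, at 5.82%.

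The Pou4f pattern was the sequence feature that differed most between the unshared classes. It was present in the 250 bp around the summit of 14.6% (14.0 to 15.3) of iP+A-only, 3.53% (3.21 to 3.87) of iG+A-only and 4.34% (3.90 to 4.82) of shared sites. The flanks held it at 8.96%, 8.57% and 8.46% in the same order, windows placed every 100000 bp along the genome at 12.0%, and RefSeq promoters of the build GRCm38.p6 (300 bp each) at 6.09%. The iP+A-only class was thus above its flanks and the other classes below theirs. Without a mismatch the pattern was present at 129 iP+A-only (1.18%), 10 iG+A-only (0.0810%) and 13 shared sites (0.167%). Without the crowded bins these were 119 (1.40%), 1 and 4 sites, and with 1 mismatch the shares were 15.4% (14.7 to 16.2) of iP+A-only, 2.15% (1.86 to 2.46) of iG+A-only and 2.34% (1.98 to 2.75) of shared sites. Base composition moved with it, since the mean GC content was 49.8% ± 11.8 (SD over 10944 sites) at iP+A-only, 52.1% ± 10.4 at iG+A-only and 54.97% ± 11.7 at shared sites, and 41.8% in the genome windows. At a GC content of 45% to 50%, the pattern was present at 18.5% (16.7 to 20.3) of iP+A-only, 2.53% (1.92 to 3.27) of iG+A-only and 4.48% (3.21 to 6.08) of shared sites, and iP+A-only sites were highest in each of the 6 GC ranges examined.

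**Figure D3:**
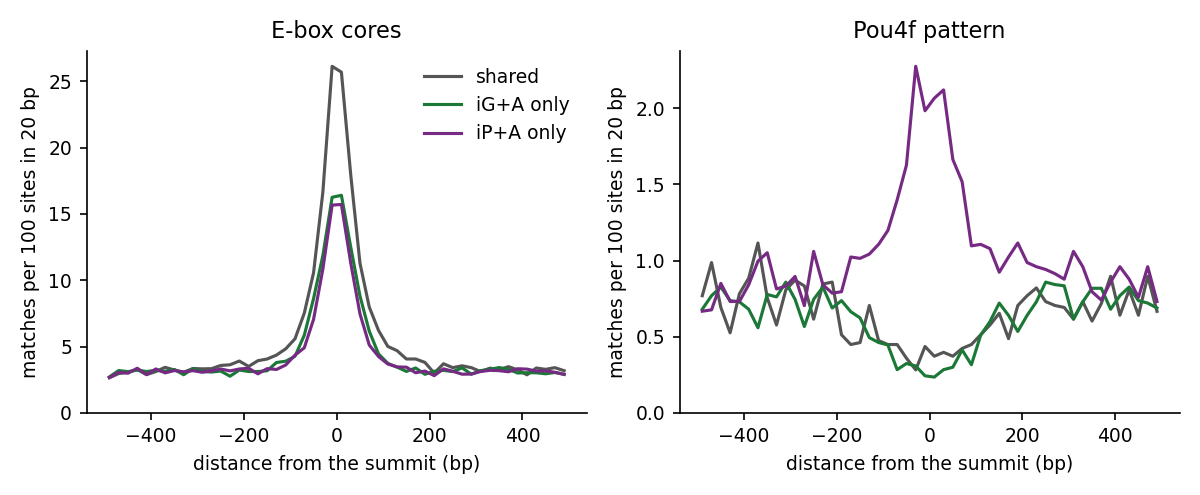
Matches to the E-box cores (left) and to the Pou4f pattern (right) per 100 sites in bins of 20 bp, against the distance from the summit in bp, for each class. E-box cores peak at the summit in all classes, at about 26 per 100 shared sites, while the Pou4f pattern peaks only in iP+A-only sites, at about 2 per 100 sites.

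E-boxes were centred on the summit in all 3 classes. An E-box core was present at 74.6% (73.6 to 75.5) of shared, 60.3% (59.4 to 61.2) of iG+A-only and 61.9% (61.0 to 62.8) of iP+A-only sites, and at 31.9% to 32.1% of the flanks. The core nearest to the summit lay within 25 bp of it at 66.4%, 55.8% and 55.2% of the sites that had one. Even placement of 1 core per site would give 20%, and sites with several cores would exceed this under even placement too. CAGCTG was present at 51.9% of shared, 36.2% of iG+A-only and 34.0% of iP+A-only sites, and CAGATG at 40.3%, 35.3% and 35.9%. The longer Atoh1 E-box pattern was present at 19.7% (18.8 to 20.6) of shared, 13.9% (13.3 to 14.6) of iG+A-only and 12.6% (12.0 to 13.3) of iP+A-only sites, at 2.06% to 2.17% of the flanks and at 2.09% of the genome windows. Between the unshared classes this pattern was 1.29 points higher in iG+A-only sites (0.413 to 2.16), whereas the E-box cores were 1.60 points higher in iP+A-only sites (0.342 to 2.85), so no direction is given for E-boxes as a whole.

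E-box core and Pou4f pattern occurred together at 10.6% (10.1 to 11.2) of iP+A-only, 1.77% (1.55 to 2.02) of iG+A-only and 2.52% (2.19 to 2.90) of shared sites. Where both were present, their centres were a median of 34.5 bp apart in iP+A-only sites (quartiles 20.5 and 66.5), 57.5 bp in iG+A-only and 59.5 bp in shared sites. In iP+A-only sites 23.3% of the pairs lay under 20 bp apart and 33.2% at 20 to 40 bp. Whether the words met more often than their separate shares would give was not tested. The Pou4f pattern lay within 25 bp of the summit at 29.9% of iP+A-only sites that had it, 17.7% of iG+A-only and 19.2% of shared sites. The part of this in the spacing was not tested. The iP+A-only sequences printed above show such pairs side by side.

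The Gfi1 pattern AATCACNGC was rare in all 3 classes. It was present at 93 iG+A-only (0.753%), 85 iP+A-only (0.777%) and 56 shared sites (0.717%), and at 0.615% of the genome windows. The flanks held it at 0.486% (0.403 to 0.581), 0.640% (0.538 to 0.754) and 0.461% (0.361 to 0.581) in the same order, below the 0.753% (0.608 to 0.922) of iG+A-only sites and with an overlapping interval for the 0.777% (0.621 to 0.960) of iP+A-only sites. The unshared classes differed by 0.0238 points (−0.201 to 0.253). At iG+A-only sites with a Gfi1 peak in iGPA cells the share was 5.08% of 374, against 0.618% of the 11978 without. The same held in the other classes, at 3.49% against 0.658% of iP+A-only and 3.32% against 0.488% of shared sites.

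Among all 2080 words of 6 letters, each counted with its reverse complement, those that favoured iP+A-only over iG+A-only sites were AT-rich. AATAAT was present at 18.5% of iP+A-only, 7.62% of iG+A-only and 7.19% of shared sites, and ATGAAT at 17.0%, 8.60% and 8.34%. In the other direction CAGGAA was present at 32.1% of iG+A-only, 25.3% of iP+A-only and 26.9% of shared sites, and ACTTCC at 18.4%, 13.3% and 14.5%. The difference was 10.9 points for AATAAT and −6.81 for CAGGAA, while the middle 95% of all words lay between −2.49 and 3.62 points.

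The Pou4f pattern was most frequent at the strongest iP+A-only sites. From the weakest to the strongest quintile of the iP+A-only class by −log10 p, the Pou4f pattern was at 9.55% and 24.2% (22.4 to 26.1) of sites, while it was at 2.91% and 3.76% (3.05 to 4.59) in the iG+A-only class. Atoh1 peaks of iAtoh1 cells were at 40.1% (38.2 to 42.1) of the strongest quintile of iG+A-only sites and 28.9% (27.0 to 30.9) of the strongest quintile of iP+A-only sites. In iGPA cells the same quintiles had Atoh1 peaks at 59.4% (57.4 to 61.3) and 70.0% (68.0 to 71.9). Strong sites were also less often near a start, at 13.7% and 9.41% within 1 kb in these quintiles.

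**Figure D4:**
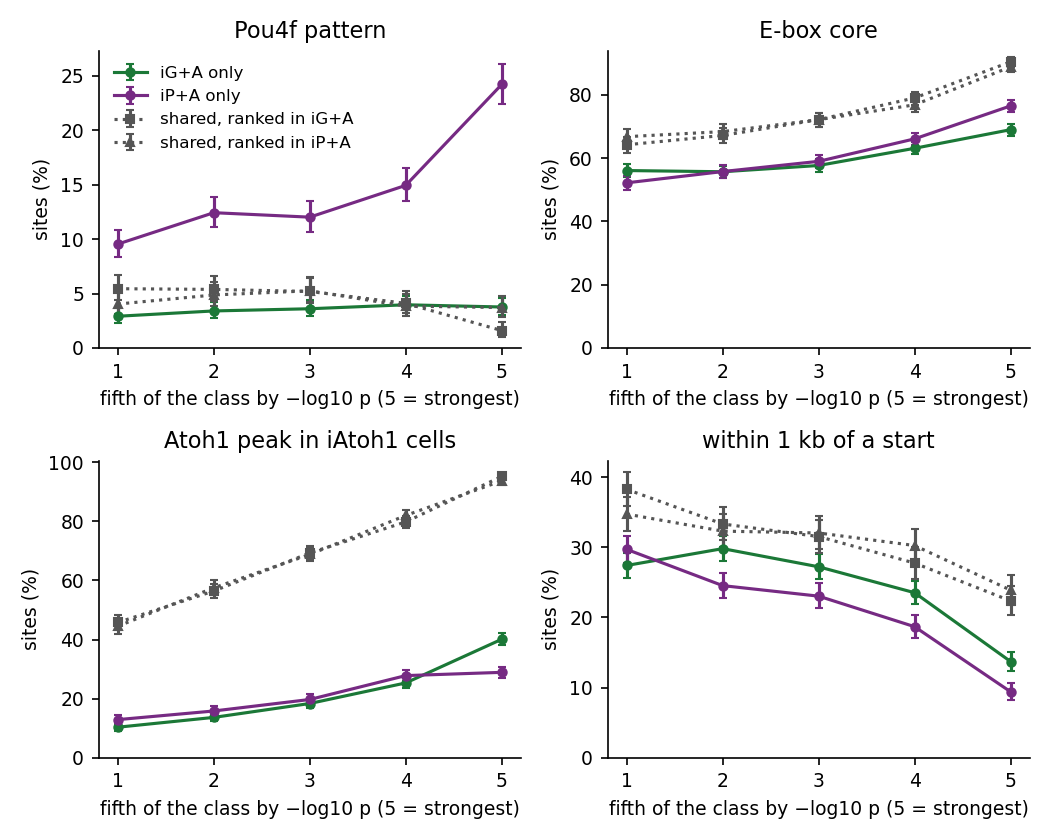
Share of sites (%) with the Pou4f pattern, an E-box core, an Atoh1 peak in iAtoh1 cells or a start within 1 kb, by quintile of each class ranked by −log10 p (5 is strongest); bars are 95% Clopper-Pearson intervals and shared sites are ranked once in each list. The Pou4f pattern is at 24.2% in the strongest iP+A-only quintile and under 6% in every quintile of the other classes.

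In the annotation, iP+A-only sites lay farthest from transcription starts. The median distance to the nearest start was 5992 bp at shared, 8141 bp at iG+A-only and 10542 bp at iP+A-only sites. Within 1 kb of a start lay 30.6% (29.6 to 31.7), 24.3% (23.6 to 25.1) and 21.1% (20.3 to 21.8), and iG+A-only exceeded iP+A-only sites by 3.26 points (2.18 to 4.33). With the lists changed and joined anew, this difference included 0 with all called peaks (0.690, −0.341 to 1.72) and at −log10 p of at least 10 (1.51, −0.191 to 3.21) or 20 (2.23, −0.829 to 5.35). Over 50 kb from any start lay 11.8%, 14.6% and 19.3%. Introns held 31.5%, 33.4% and 33.0%, and intergenic DNA 34.5%, 39.4% and 43.0%, while coding exons held 1.26% to 1.68%.

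Each site was assigned to the gene with the nearest start. Of 22383 genes (protein-coding or listed), 18.4% had at least 1 shared site, 24.7% at least 1 iG+A-only site and 20.9% at least 1 iP+A-only site. Of these genes 1044 had iG+A-only and iP+A-only but no shared sites, and 942 had all 3 classes. Over all genes, 46.2% (45.4 to 46.9) of 16744 unshared sites were iP+A-only. The genes named next lie outside the crowded bins and were chosen after the values were seen. Chi3l3, a chitinase-like gene, had 26 iP+A-only, 5 iG+A-only and 2 shared sites. These outnumber the 8 sites of the median 1 Mb bin, and whether they form a smaller crowded group was not tested. Atg7, an autophagy gene, had 12 iG+A-only, 5 iP+A-only and 1 shared site. Ptprg, a receptor tyrosine phosphatase, and Zfp423, a zinc finger factor of neural development, each had 9 iP+A-only and 0 iG+A-only sites, with 3 and 4 shared sites. Auts2, a neurodevelopmental gene, had 13 iP+A-only, 4 iG+A-only and 10 shared sites, and Gadd45g, a stress response gene, had 8 shared and 1 of each other class.

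General neuronal genes had the highest share of iP+A-only among unshared sites of the 9 gene lists. Of 53 such genes in the annotation 54.7% had an iP+A-only site (20.9% of all genes), 34.0% an iG+A-only site (24.7%) and 30.2% a shared site (18.4%). Of the 91 unshared sites at these genes, 65 were iP+A-only (71.4%, 61.0 to 80.4), and 22 genes had more iP+A-only than iG+A-only sites, 11 fewer. Rbfox1, a neuronal splicing regulator, had 9 iP+A-only and 2 iG+A-only sites, Elavl4, an RNA-binding protein of neurons, 6 and 0, the transcription factor gene Ebf3 6 and 0, Elavl2 5 and 1, and the growth cone gene Gap43 4 and 0.

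**Figure D5:**
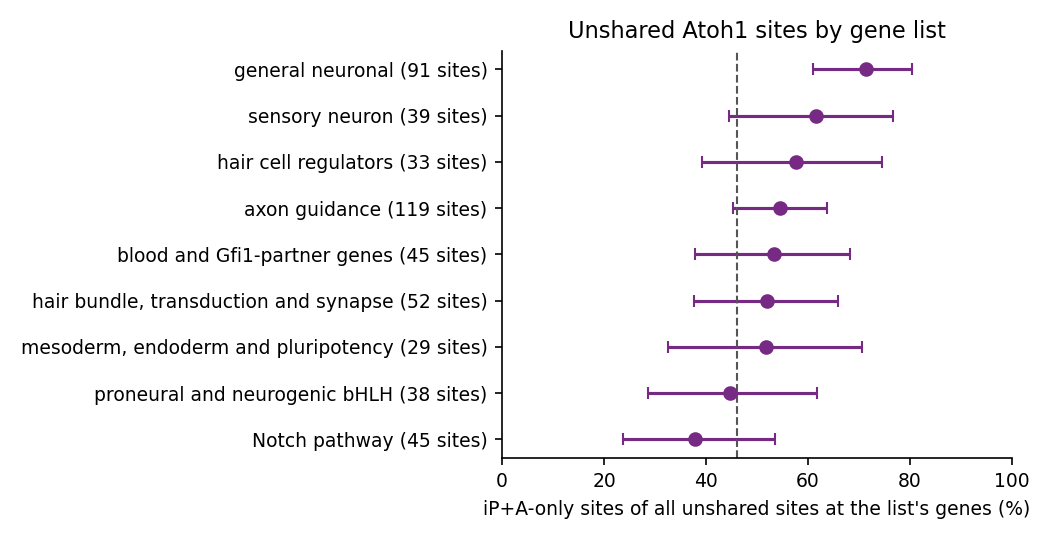
Share (%) of the unshared sites nearest to each list's genes that were iP+A-only, with 95% Clopper-Pearson intervals; the number of unshared sites is in brackets and the dashed line is the share over all genes, 46.2%. General neuronal genes are highest at 71.4% and Notch pathway genes lowest at 37.8%.

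The strongest unshared sites of some listed genes are printed below as examples. They were chosen after their values were seen, and the capitals mark the same words as above. The iP+A-only examples hold the Pou4f pattern, which was present at 14.6% of all iP+A-only sites.
iP+A only, Rbfox1, chr16:7528765-7528884: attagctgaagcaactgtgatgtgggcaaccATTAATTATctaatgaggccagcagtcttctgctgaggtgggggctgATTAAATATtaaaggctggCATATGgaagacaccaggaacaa
iP+A only, Nrxn3, chr12:90023292-90023411: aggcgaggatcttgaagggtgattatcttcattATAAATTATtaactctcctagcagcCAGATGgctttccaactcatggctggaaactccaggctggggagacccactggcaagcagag
iP+A only, Ikzf2, chr1:69793325-69793444: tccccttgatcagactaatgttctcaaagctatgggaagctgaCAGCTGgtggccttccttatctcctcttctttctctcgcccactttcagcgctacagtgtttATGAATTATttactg
iG+A only, Hes5, chr4:154332532-154332651: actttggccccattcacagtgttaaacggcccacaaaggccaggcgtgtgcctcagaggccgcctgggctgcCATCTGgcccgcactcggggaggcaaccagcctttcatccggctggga

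The Rbfox1 site (chr16:7528675-7528974) lay 310479 bp downstream of the nearest Rbfox1 start, with an Atoh1 fold enrichment of 9.25 in iP+A cells and 14.3 in iGPA cells. It was a Pou4f3 peak in iG+P (4.05), iP+A (6.79) and iGPA cells (10.5) and had 2 matches to the Pou4f pattern in the printed bases. The Nrxn3 site (chr12:90023202-90023501), in an intron of this presynaptic adhesion gene, had 4.95 for Atoh1 in iP+A and 7.26 in iGPA cells and was a Pou4f3 peak in all 4 lists (3.33 to 8.59). Ikzf2 encodes Helios, a factor of outer hair cells, and had 1 shared, 2 iG+A-only and 1 iP+A-only site. Its iP+A-only site 60851 bp upstream (chr1:69793235-69793534) had 3.76 for Atoh1 in iP+A cells and Pou4f3 values of 4.53 to 12.7. The Hes5 site 2440 bp upstream of the start (chr4:154332442-154332741) had the Atoh1 E-box pattern and no Pou4f pattern, a fold enrichment of 7.08 in iG+A, 3.42 in iAtoh1 and 5.17 in iGPA cells, and no Pou4f3 or Gfi1 peak.

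Notch pathway genes had the lowest share of iP+A-only among unshared sites. Of 37 genes, 54.1% had a shared, 37.8% an iG+A-only and 29.7% an iP+A-only site (18.4%, 24.7% and 20.9% of all genes), and 17 of 45 unshared sites were iP+A-only (37.8%, 23.8 to 53.5), an interval that includes the share over all genes. Hes5 and Nrarp, a Notch target and a feedback inhibitor, each had 3 iG+A-only and 0 iP+A-only sites, and Heyl, another target, had 3 shared, 3 iG+A-only and 0 iP+A-only sites. The ligand gene Jag1 had 3 iP+A-only and 0 iG+A-only sites. The ligand gene Dll1 had 2 iG+A-only promoter sites with fold enrichments of 4.81 and 4.41, 1 iP+A-only site 4769 bp upstream (3.23) and 1 shared site (8.54 in iG+A and 8.39 in iP+A cells). Hes1 and Maml3 had the most shared sites of the list, 4 each.

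Hair cell regulators had sites of all classes. Of 26 genes 46.2% had a shared, 38.5% an iG+A-only and 61.5% an iP+A-only site (18.4%, 24.7% and 20.9% of all genes). Of their 33 unshared sites 19 were iP+A-only (57.6%, 39.2 to 74.5, against 46.2% over all genes). Srrm4, a splicing factor of neurons and hair cells, had 4 shared, 2 iG+A-only and 3 iP+A-only sites, and Atoh1 itself 3, 1 and 1. Barhl1 and Prox1 each had 2 shared, 0 iG+A-only and 1 iP+A-only sites, and Rfx3 had 1 shared and 2 iG+A-only sites. Pou4f3 had 1 shared site and, 1349 bp upstream of its start, 1 iP+A-only site with an Atoh1 fold enrichment of 3.23 and Pou4f3 values of 18.2 in iPou4f3 cells, 11.9 with Gfi1, 8.38 with Atoh1 and 18.2 with both. Gfi1 had 1 shared site (3.07 in iG+A and 3.01 in iP+A cells). Among 52 hair bundle, transduction and synapse genes 17.3% had a shared, 36.5% an iG+A-only and 40.4% an iP+A-only site. Over all genes these shares were 18.4%, 24.7% and 20.9%. The list was balanced between the lines, with 27 of 52 unshared sites iP+A-only (51.9%, 37.6 to 66.0) and 14 genes with more iP+A-only against 13 with more iG+A-only sites. The tip link gene Cdh23 and the transduction channel gene Tmc1 each had 3 iP+A-only and 1 iG+A-only site, whereas Pcdh15, the other tip link gene, had 0 and 2 and Ctbp2, the ribbon synapse gene, 1 and 3.

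Among 53 axon guidance genes 37.7% had a shared, 56.6% an iG+A-only and 52.8% an iP+A-only site (18.4%, 24.7% and 20.9% of all genes), and 65 of 119 unshared sites were iP+A-only (54.6%, 45.2 to 63.8, against 46.2% over all genes). The semaphorin receptor gene Plxna2 had 8 iP+A-only and 1 iG+A-only site, and Sema3f, a secreted semaphorin, 5 and 1. A Sema3f site 24229 bp upstream reached 10.5 for Atoh1 in iP+A and 16.4 in iGPA cells and was a peak in all 4 Pou4f3 lists and the Gfi1 list. Robo1, a Slit receptor, went the other way with 5 iG+A-only and 1 iP+A-only site, and that 1 site was a peak in all 4 Pou4f3 lists and in no other Atoh1 list.

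Sensory neuron genes had 24 iP+A-only of 39 unshared sites (61.5%, 44.6 to 76.6), and 36.4% of 44 genes had an iP+A-only site (20.9% of all genes). A shared site was at 27.3% of them (18.4% of all genes), and an iG+A-only site at 11 of the 44 (24.7% of all genes). In this list 11 genes had more iP+A-only than iG+A-only sites, 6 fewer. Pou4f1, the paralogue of Pou4f3 in sensory neurons, had 3 iP+A-only and 0 iG+A-only sites. Its site 5464 bp upstream had the Pou4f and Gfi1 patterns, peaks in all 4 Pou4f3 lists (4.75 to 6.24) and a Gfi1 fold enrichment of 10.1. Runx1 went the other way, with 4 iG+A-only, 3 iP+A-only and 2 shared sites. Ngfr, a neurotrophin receptor gene, had 4 shared and no unshared sites.

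Proneural and neurogenic bHLH genes were divided, with 17 of 38 unshared sites iP+A-only (44.7%, 28.6 to 61.7) and 39.3% of 28 genes having a shared site (18.4% of all genes). Id2, an inhibitor of bHLH factors, had 8 iP+A-only and 6 iG+A-only sites, Atoh8 6 shared, 2 iG+A-only and 0 iP+A-only, and Olig3 4 iG+A-only and 0 iP+A-only. Blood and Gfi1-partner genes had 24 of 45 unshared sites iP+A-only (53.3%, 37.9 to 68.3), and 36.7% of 30 genes had an iG+A-only site, a share that was the same for iP+A-only sites (24.7% and 20.9% of all genes). In that list Ets1, a transcription factor gene of blood cells, had 2 shared, 4 iG+A-only and 1 iP+A-only site. Mesoderm, endoderm and pluripotency genes had 15 of 29 unshared sites iP+A-only (51.7%, 32.5 to 70.6), where Hand2 had 3 iP+A-only and 0 iG+A-only sites and Mixl1 0 and 2. Sites near 1 gene are not independent, and the intervals of all lists other than the general neuronal genes include the share over all genes.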

How the data were processed

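ChIP-seq peak lists of Atoh1 in iG+A and iP+A cells were compared, with 7 further lists of the series. Per the submitters' notes and the study's methods, the authors trimmed reads with Trimmomatic, aligned them to mm9 with Bowtie2, removed duplicates, low mapping quality and blacklisted reads, and called peaks with MACS2 on merged replicates against merged input. The deposited fold enrichment is a ratio to local background, and the deposited −log10 p is the caller's value at the summit. The kept summits were used, and 31.5% of the called iG+A and 28.6% of the called iP+A peaks were left out by the authors, by a filter not given in the sources used here. Read totals were not used here. The local background in fragments was recovered from fold and −log10 p for 99.9% of peaks in each list (tolerance 0.001).

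Patterns were searched in 250 bp on both strands with Python 3.11.15 and pysam 0.24.0 in the genome NCBIM37 (mm9), and the annotation was GENCODE vM1 (all transcript starts). Joining, pattern search and intervals were checked on simulated data. Named sites were the highest by fold enrichment in each class, outside untranslated regions and tandem repeats of units of 1 to 12 bp. Named genes were those with the most sites per class and, per list, the 5 with the largest difference between unshared classes and the 2 with most shared sites, of which a part is printed, and named words the 5 of 6 letters with the largest difference each way, also in part. Alternatives changed the window, the peaks kept, the list length, the chromosomes, the starts and the patterns. Members and gene lists were chosen with earlier results of these data known. One gene named by the rule is not reported here, and Nrxn3, Dll1, Pou4f3 and Gfi1 were named outside it, after their values were seen. A symbol with several annotation IDs was counted as 1 list member.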

Additional observations from a re-analysis of the deposited data

How the results depend on the processing

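No paired analysis was possible because each list pools its replicates, and for the same reason no replicate was left out. Of 159 values over 15 results, 104 under alternatives chosen at the start and 21 under those added after seeing the data stayed. For a difference, staying meant that it kept its direction and whether its interval excluded 0, or that both intervals held 0. A share stayed if within its interval, and a count or GC difference if within 1.5 times. The differences in the Pou4f pattern, in Pou4f3 peaks of iPou4f3 and iG+P cells and in Gfi1 and Atoh1 peaks of iGPA cells stayed under each alternative run. All 15 results stayed with 1 chromosome left out or on autosomes only. The Gfi1 pattern difference, iG+A-only minus iP+A-only, changed direction within this rule. It was −0.0238 points in the main setting and up to 0.0379 (−0.196 to 0.268) with 1 chromosome left out. The shared percent of iG+A and iP+A sites was 32.5 and 35.1 with 100 bp windows, 45.3 and 48.3 with 1000 bp windows, 49.2 and 54.0 with all called peaks (13774 shared sites), and 40.5 and 40.3 with lists of equal length. For iG+A sites it was 43.8 at −log10 p of at least 10 (3570 iG+A-only, 3927 iP+A-only and 2787 shared sites), 47.3 at 20 (948, 1207 and 851) and 39.4 without the crowded bins, the last 2 settings added after seeing the data. At these −log10 p cut-offs the lists were cut before joining, so a site whose other peak fell below the cut-off became unshared.

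In percentage points, the excess of iAtoh1 peaks at iG+A-only over iP+A-only sites excluded 0 with 100 bp windows (0.951), equal lists (1.465), −log10 p of at least 10 (8.92) or 20 (22.6), and without the crowded bins (1.90). The excess of starts within 1 kb included 0 with all called peaks (0.690) and at −log10 p of 10 (1.51) or 20 (2.23), and the GC difference was 1.37, 1.435 and 1.42. The Atoh1 E-box pattern, iP+A-only minus iG+A-only, was −0.558 with all called peaks and −1.75 at −log10 p of 10, both with 0 in the interval, and reversed to 1.01 as CANNTG and 1.60 as 6-letter cores. The Gfi1 difference, iG+A-only minus iP+A-only, was −3.33 with the 4-letter core AATC. The cause of these changes was not tested. Counting error alone is covered, and the spread between replicates is not.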
